A study of Mus musculus with 48 samples.

Results

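The genes described here modify or chaperone collagen chains in the endoplasmic reticulum: the prolyl 4-hydroxylase subunits P4ha1, P4ha2 and P4ha3, the lysyl hydroxylases Plod1, Plod2 and Plod3, and the collagen chaperone Serpinh1. They were taken by symbol from array probe sets that carry a single gene symbol, with the probe set of highest mean standing for a symbol that has several. This found 6 of the 7 genes among 22180 symbols. The only probe set of Plod3 is shared with another gene, and Plod3 was not analysed here. Each of the other 6 had 1 probe set of its own, and all 6 were among the 15337 genes tested, which had at least 1 group mean of 4.94 or more on the log2 scale.

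Fibrillar collagen is made as procollagen chains that fold into a triple helix in the endoplasmic reticulum. Prolyl 4-hydroxylase, a tetramer of catalytic alpha subunits (P4ha1 to P4ha3) and the beta subunit P4hb, hydroxylates prolines, without which the helix is not stable at body temperature. Lysyl hydroxylases act on lysines that later carry sugars or cross-links, and Plod2 acts on the telopeptides at the chain ends, where it sets the type of cross-link. Serpinh1 (HSP47) binds the folded helix and accompanies procollagen towards the Golgi. In the aortic wall, collagen lies beside the elastic lamellae and takes up load at high stretch.

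RNA of ascending (AA) and descending (DA) aorta was measured on 48 arrays from mice lacking Eln (elastin), Efemp2 (fibulin-4, an elastic fibre assembly protein) or Lox (lysyl oxidase, which cross-links elastin and collagen), and from wild types (WT) of each model. Embryos of day 17.5 (E17.5) and pups of postnatal day 1 (P1) were used, which gave 24 groups of 2 arrays, each array from a pool of 8 aortas. The strain was C57BL/6 for Eln and Efemp2 and B6 albino for Lox, so strain and model cannot be told apart for Lox. The labels call the mutants KO and name no alleles, sexes or litters. Whether AA and DA arrays came from the same animals was not tested, and all arrays were treated as independent. With 2 pools per group, P values measure only the spread between replicate pools, taken per gene over all 24 groups and moderated across genes. The SE of a pair is therefore not that of its own arrays alone, and so few arrays bound the precision. In whole tissue, fewer cells of a type and less RNA per cell cannot be told apart.

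The deposited values are log2 signals, and a difference of 1 is a doubling. Arrays of the Eln and Efemp2 models at P1 share exact values among their lowest and were treated as 1 normalization run. Each model at E17.5 was treated as a run of its own, and the Lox P1 arrays could not be placed in a run. Levels are therefore compared only within a run or pair and never between genes. KO was compared with WT by limma over all arrays, in each of the 12 pairs that share model, stage and part of the aorta, and averaged over a model's 4 pairs. A gene passed at a Benjamini-Hochberg adjusted p under 0.05. Eln fell by 6.12 in the Eln mean contrast and Lox fell by 2.66 in the Lox one; Efemp2 has no probe set of its own and was not analysed here. The Eln WT DA P1 arrays read 9.20 and 11.65 for Eln, the lower of them below the other 6 Eln WT arrays (10.95 to 11.91), and the Lox KO arrays at E17.5 split for Lox (6.56 and 7.99 in AA, 6.26 and 7.93 in DA). All 6 smooth muscle markers read above 4.94 on every array, among them Acta2 at 10.9 to 12.7 and Smtn at 6.56 to 9.40. So did all 6 fibroblast markers, among them Dcn at 10.2 to 12.1 and Pi16 at 5.39 to 9.67. Both WT arrays of Eln DA P1, and replicate 2 of the WT arrays of Efemp2 AA P1 and DA P1, had raised background (median of unnamed probe sets 4.35 to 4.37), and Lox P1 arrays had lower medians in KO (4.85 to 5.19) than in WT (5.21 to 5.35). A fit less these 4 arrays drops the whole Eln DA P1 pair, so its Eln means are over the pairs left. In those means, background and the loss of the pair cannot be told apart.

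RNA of several hydroxylases rose in the aortas of all 3 mutants. P4ha1, P4ha3 and Plod2 rose in each model. Plod1 passed with Eln loss and Serpinh1 with Efemp2 loss, while P4ha2 passed in no mean contrast. In Eln KO 4 of 6 genes rose, against 2.74% of all tested genes, and 0 fell, against 0.541%. In Efemp2 KO 4 of 6 rose, against 3.14%, and 0 fell, against 0.665%. In Lox KO 3 of 6 rose, against 0.561%, and 0 fell, against 1%. With so few of all tested genes falling, 0 of 6 does not set this group apart. The median difference of the 6 genes was 0.54, 0.45 and 0.25 in the Eln, Efemp2 and Lox contrasts, beside 0.06, 0.04 and -0.09 over all tested genes. P4ha1, P4ha3 and Plod2 were 3 of the 34 genes (0.222% of those tested) that rose in all 3 models. Less the 4 arrays of raised background 2 of 6 rose in Eln KO, and without replicate 1 of Lox KO DA P1 1 of 6 rose in Lox KO. In Efemp2 KO 2 of 6 rose with cyclic loess.

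**Figure D1:**
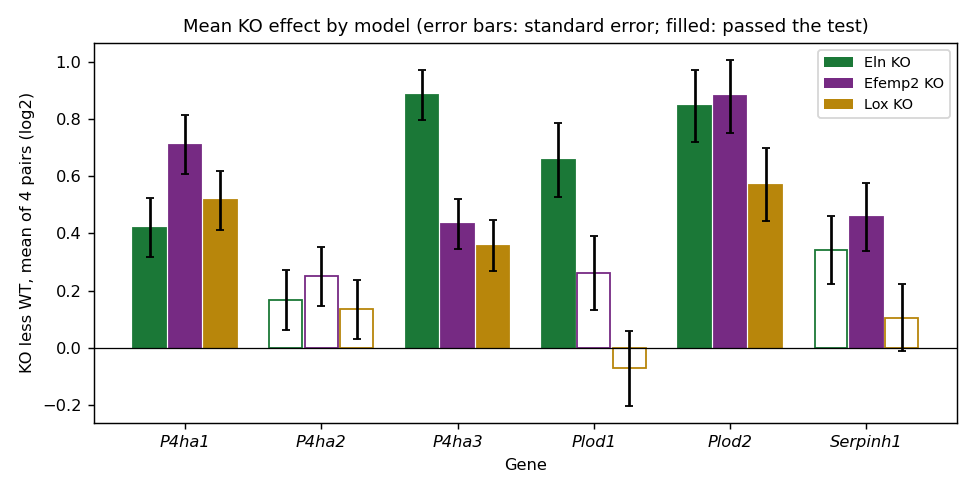
Mean KO effect of each measured gene by model. Bars give KO less WT in log2 units, averaged over 4 pairs of 2 KO and 2 WT arrays; error bars are standard errors from limma, and filled bars passed the test. P4ha1, P4ha3 and Plod2 are filled in all 3 models, and Plod1 runs from 0.66 in Eln to -0.07 in Lox.

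P4ha1 encodes the widely used catalytic subunit of prolyl 4-hydroxylase. It rose by 0.42 ± 0.10 (SE; 1.34-fold; limma adjusted p = 0.0154) in Eln KO, by 0.71 ± 0.10 (1.64-fold; adjusted p = 3.7e-05) in Efemp2 KO and by 0.52 ± 0.10 (1.43-fold; adjusted p = 0.00477) in Lox KO, each with 8 KO and 8 WT arrays. The difference was above 0 in 12 of 12 pairs, and both KO arrays lay above both WT arrays in 10. Of all tested genes, 58 (0.378%) had KO arrays above WT arrays in at least 10 pairs. The Efemp2 and Lox calls held in every other setting tried and without any single array. The Eln call was lost in 4 of 10 settings. Among them was the fit less the 4 arrays of raised background, which drops the DA P1 pair (0.30 over the pairs left). The call was also lost without replicate 1 of Eln WT AA E17.5 (0.39) or replicate 2 of Eln KO AA P1 (0.36).

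Most of the P4ha1 difference lay at P1. With Efemp2 loss in AA at P1, the KO arrays read 7.73 and 7.26 and the WT arrays 6.26 and 6.04. With Efemp2 loss in DA at P1 they read 7.28 and 7.33 against 6.00 and 6.73. The KO arrays were higher in both parts of the aorta with no overlap, by 1.34 ± 0.21 (adjusted p = 0.000239) in AA and 0.94 ± 0.21 (adjusted p = 0.0149) in DA. KO arrays lay above WT arrays for 27.6% of all tested genes in that AA pair and 26.4% in that DA pair. With Lox loss in AA at P1, KO arrays read 8.38 and 8.32 and WT arrays 7.49 and 7.51. With Lox loss in DA at P1, they read 9.04 and 8.60 against 7.93 and 7.85. Here too no arrays overlapped, and P4ha1 was the only gene of the 6 to pass in either Lox pair (0.85 ± 0.21, adjusted p = 0.0456 in AA; 0.93 ± 0.21, adjusted p = 0.0339 in DA). Of all tested genes, 8.33% in Lox AA P1 and 7.6% in Lox DA P1 had KO arrays above WT arrays. In Eln DA P1 the KO arrays read 6.95 and 6.97 and the WT arrays 6.31 and 6.03, a difference of 0.79 ± 0.21 (adjusted p = 0.00643). In Eln AA P1 the arrays overlapped, with KO at 6.25 and 6.74 and WT at 6.35 and 6.03. The call in Efemp2 AA P1 held in every setting and leave-out tried, while that in Efemp2 DA P1 was lost without replicate 1 of the WT arrays (0.57, adjusted p = 0.123) or either KO array, and that in Eln DA P1 with cyclic loess (0.24, adjusted p = 0.534) and without replicate 2 of the WT arrays (adjusted p = 0.061).

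P4ha3 encodes another alpha subunit. It showed its highest mean rise with Eln loss, 0.88 ± 0.09 (1.85-fold; limma adjusted p = 6.14e-08), followed by 0.43 ± 0.09 (1.35-fold; adjusted p = 0.00263) with Efemp2 loss and 0.36 ± 0.09 (1.28-fold; adjusted p = 0.0292) with Lox loss. In Eln AA P1 the KO arrays read 8.26 and 8.13 and the WT arrays 7.19 and 7.26. In Eln DA P1 they read 8.61 and 8.03 against 6.50 and 6.76. The groups stood well apart in both, by 0.97 ± 0.18 (adjusted p = 0.00235) in AA and 1.69 ± 0.18 (3.24-fold; adjusted p = 2.43e-07) in DA. KO arrays lay above WT arrays for 21.4% of all tested genes in Eln AA P1 and 38.7% in Eln DA P1. Efemp2 KO arrays read 7.90 and 7.79 in AA and 7.87 and 7.91 in DA at P1, and their WT arrays 6.97 and 7.19 in AA and 7.01 and 6.65 in DA. These pairs did not overlap either and differed by 0.77 ± 0.18 (adjusted p = 0.0125) and 1.06 ± 0.18 (adjusted p = 0.00113). Of all tested genes, 27.6% in Efemp2 AA P1 and 26.4% in Efemp2 DA P1 had KO arrays above WT arrays. The AA call was lost without replicate 1 of the WT arrays or either KO array (adjusted p 0.0745 to 0.0916) and with cyclic loess (0.45, adjusted p = 0.274), and the DA call without replicate 2 of the WT arrays (adjusted p = 0.0613). At E17.5 the Efemp2 KO arrays lay among the WT arrays in both parts of the aorta, at 7.19 to 7.44 against 7.28 to 7.54.

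The mean Eln rise of P4ha3 held in all 10 other settings and without any single array. So did its rise in Eln DA P1 in the settings that keep that pair, while the Eln AA P1 call was lost without replicate 1 of the KO arrays (adjusted p = 0.0501). Its Efemp2 rise was lost with cyclic loess (0.30, adjusted p = 0.104) and with only the Efemp2 arrays in the fit (adjusted p = 0.0751). Its Lox rise was lost in 2 of 10 settings and in 12 of 16 fits that left out 1 array, with adjusted p up to 0.113 without replicate 1 of Lox KO DA P1.

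P4ha2, the remaining alpha subunit, differed by 0.17 ± 0.10 in Eln KO (adjusted p = 0.47), 0.25 ± 0.10 in Efemp2 KO (adjusted p = 0.209) and 0.13 ± 0.10 in Lox KO (adjusted p = 0.583) by limma. The Eln value changed sign, to -0.099, without the 4 arrays of raised background, a fit that drops the DA P1 pair. P4ha2 passed in 1 pair, Eln DA P1, where KO arrays read 6.56 and 6.66 and WT arrays 5.43 and 5.86 (0.97 ± 0.21, adjusted p = 0.00152). Both of those WT arrays were of raised background. With another measure of background as a covariate, each array's median of olfactory or vomeronasal receptor genes, the difference was 0.69 (adjusted p = 0.305). By that measure the 4 arrays of raised background read 3.11 to 3.53, and replicate 1 of Efemp2 WT AA P1, not among them, read 3.11. Over the 12 pairs KO arrays lay above WT in 6, below in 3 and among them in 3. All 3 pairs below were of AA at E17.5. In a single pair, 7.6% to 38.7% of all tested genes had KO arrays above WT arrays. The share with KO arrays below WT arrays was not counted, so the 3 pairs below have no share beside them.

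**Figure D2:**
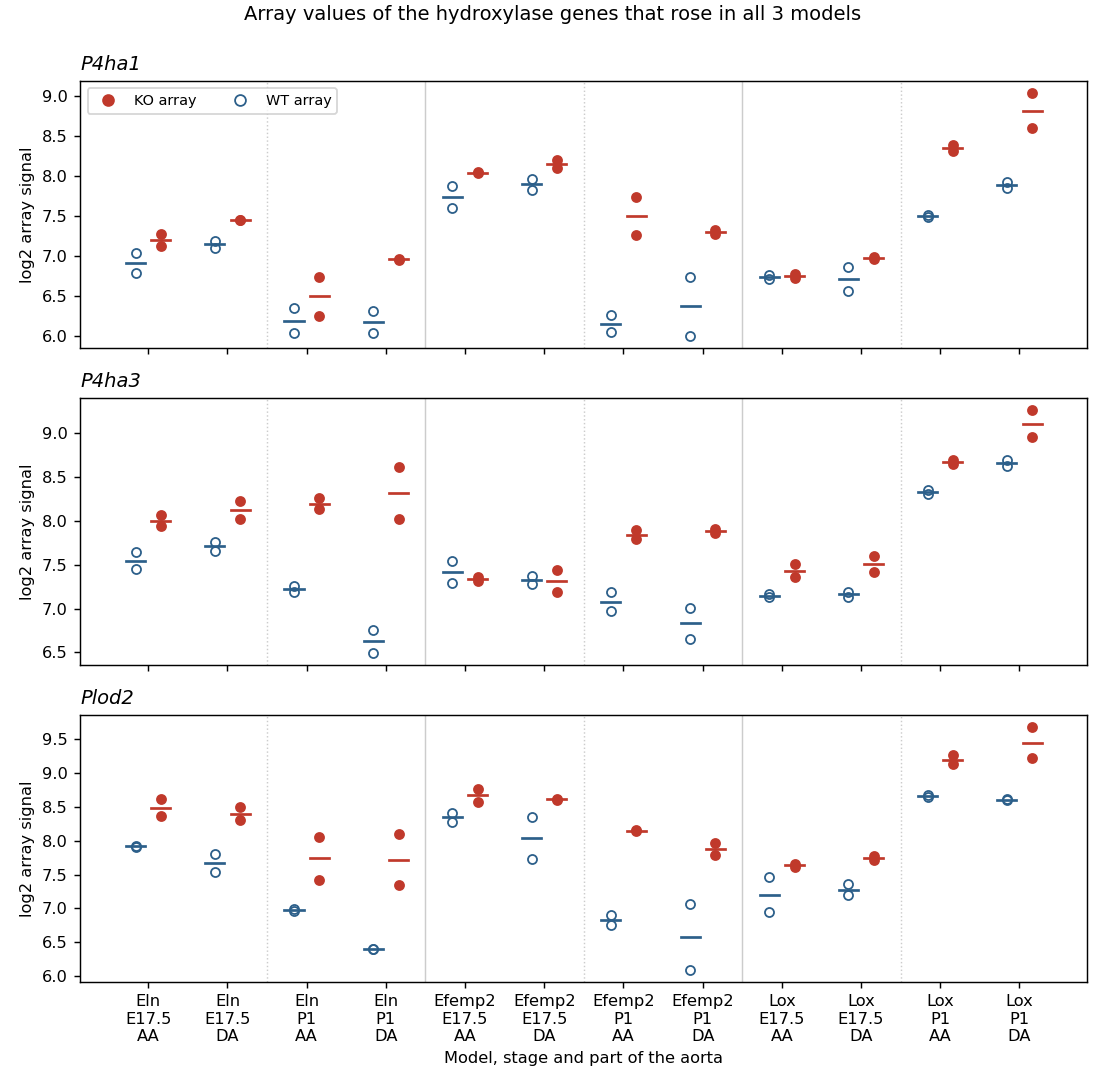
Array values of P4ha1, P4ha3 and Plod2. Each point is 1 array in deposited log2 units, filled for KO and open for WT, and short lines are means of the 2 arrays; the x axis gives model, stage and part of the aorta. Plod2 KO points lie above WT points in all 12 pairs, and levels may be compared only within a pair or normalization run.

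The promoters of the alpha subunits are shown because P4ha1 and P4ha3 rose in each model and P4ha2 in none of the mean contrasts, and because P4ha1 is known as a hypoxia-induced gene. The sequences are RefSeq's (GRCm38.p6), 5′ to 3′ on the gene's strand, from chr10:59323046-59323196 for P4ha1, chr11:54100674-54100923 for P4ha2 and chr7:100285270-100285488 for P4ha3, all on the plus strand, and stop before the first annotated base of the gene. Capitals mark ACGTG or GCGTG, cores of hypoxia response elements, on either strand.
P4ha1: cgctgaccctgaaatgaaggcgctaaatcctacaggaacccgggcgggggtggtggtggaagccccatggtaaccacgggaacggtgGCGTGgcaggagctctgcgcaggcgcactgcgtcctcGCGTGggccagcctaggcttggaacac
P4ha2: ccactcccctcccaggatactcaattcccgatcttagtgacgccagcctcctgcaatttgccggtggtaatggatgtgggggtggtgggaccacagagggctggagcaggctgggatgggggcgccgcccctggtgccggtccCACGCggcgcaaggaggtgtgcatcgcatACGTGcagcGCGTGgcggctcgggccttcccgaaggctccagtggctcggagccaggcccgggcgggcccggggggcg
P4ha3: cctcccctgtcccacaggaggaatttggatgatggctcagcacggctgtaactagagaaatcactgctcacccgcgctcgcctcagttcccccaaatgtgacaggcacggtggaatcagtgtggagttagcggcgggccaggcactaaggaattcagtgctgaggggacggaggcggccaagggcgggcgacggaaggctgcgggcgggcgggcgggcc
In the 250 bases before the start that the promoter table uses, P4ha1 held 3 matches, of which 2 lie in the stretch printed, P4ha2 held 3 and P4ha3 held 0, where 38.6% of 32851 promoters of that length held at least 1. P4ha2 also held 1 TTCNNGAA, a heat shock element core found in 7.17% of promoters. Serpinh1, a heat shock protein, held 1 ACGTG and none of GAANNTTC or TTCNNGAA, which occurred in 6.69% and 7.17% of promoters. Plod1 held 1 GCGTG. A match is a run of letters in a window and not a measured site.

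Plod2, the telopeptide lysyl hydroxylase, rose by 0.85 ± 0.13 (1.80-fold; limma adjusted p = 5.94e-05) with Eln loss, 0.88 ± 0.13 (1.84-fold; adjusted p = 3.62e-05) with Efemp2 loss and 0.57 ± 0.13 (1.48-fold; adjusted p = 0.0129) with Lox loss. It was the one gene of the 6 whose KO arrays lay above the WT arrays in 12 of 12 pairs, a pattern found in 12 of the 15337 tested genes (0.0782%). At E17.5 the Eln KO arrays ran from 8.31 to 8.61 and the WT arrays from 7.54 to 7.93. The Efemp2 KO arrays ran from 8.58 to 8.77 at that stage and the WT arrays from 7.73 to 8.41. Lox KO arrays ran from 7.62 to 7.78 and WT arrays from 6.94 to 7.47. None of these ranges, each over the 4 AA and DA arrays of a genotype, overlapped, although no single E17.5 pair passed the test. The share of all tested genes with ranges apart over those 4 arrays was not counted. In single pairs at E17.5, 14.9% to 25.8% of all tested genes had KO arrays above WT arrays.

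At P1 Plod2 read 8.14 and 8.15 in Efemp2 KO AA against 6.90 and 6.75 in WT. In Efemp2 DA it read 7.79 and 7.96 against 7.07 and 6.10. In Eln DA it read 7.34 and 8.10 against 6.41 and 6.40. The 3 pairs passed and did not overlap, with differences of 1.32 ± 0.25 (adjusted p = 0.00292), 1.29 ± 0.25 (adjusted p = 0.00531) and 1.32 ± 0.25 (adjusted p = 0.00057) by limma. KO arrays lay above WT arrays for 27.6%, 26.4% and 38.7% of all tested genes in these pairs, in the same order. The Eln DA call was lost with the receptor gene median as a covariate (0.63, adjusted p = 0.402). The Efemp2 DA call was lost without replicate 2 of the WT arrays, one of those with raised background, where the difference was 0.81 (adjusted p = 0.282), and without replicate 2 of the KO arrays (adjusted p = 0.0799). In Lox AA P1 the KO arrays read 9.13 and 9.26 and the WT arrays 8.68 and 8.65, and in Lox DA P1 they read 9.68 and 9.22 against 8.61 and 8.60. These pairs did not overlap but did not pass (0.53 ± 0.25, adjusted p = 0.462; 0.84 ± 0.25, adjusted p = 0.225). KO arrays lay above WT arrays for 8.33% and 7.6% of all tested genes in them. The Eln and Efemp2 mean calls held in every other setting and without any single array. The Lox one was lost with the receptor gene median as a covariate (0.43, adjusted p = 0.0521) and without replicate 1 of Lox KO DA P1 (adjusted p = 0.0588).

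Plod1, which hydroxylates lysines of the helical part of the chains, passed in 1 model. It rose by 0.66 ± 0.13 (1.58-fold; limma adjusted p = 0.00195) with Eln loss and differed by 0.26 ± 0.13 (adjusted p = 0.316) with Efemp2 loss and by -0.07 ± 0.13 (adjusted p = 0.834) with Lox loss. The Lox value changed sign, to 0.0059, when arrays were centred on their medians. The Eln rise came mainly from DA at P1, where KO arrays read 7.30 and 7.60 and WT arrays 5.24 and 5.93 (1.87 ± 0.26, 3.64-fold; adjusted p = 2.01e-05). Both WT arrays there were of raised background. The fit less the 4 such arrays drops this pair. The Eln mean over the 3 pairs left was 0.25, and the call was lost. That fit cannot tell background from the loss of the pair. A fit with the receptor gene median as a covariate keeps the pair, and both calls were lost in it. There the Eln mean was 0.45 (limma adjusted p = 0.109) and the DA P1 difference 1.22 (adjusted p = 0.0858). In the other 3 Eln pairs Plod1 differed by 0.09 to 0.40.

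Serpinh1, the collagen chaperone, differed by 0.34 ± 0.12 (limma adjusted p = 0.114) with Eln loss, rose by 0.46 ± 0.12 (1.37-fold; adjusted p = 0.0217) with Efemp2 loss and differed by 0.10 ± 0.12 (adjusted p = 0.722) with Lox loss. In Efemp2 DA P1 its KO arrays read 9.13 and 8.71 and its WT arrays 8.12 and 7.82, a difference of 0.95 ± 0.24 (adjusted p = 0.0335). In Eln DA P1 they read 9.01 and 8.77 against 7.89 and 8.35, a difference of 0.77 ± 0.24 (adjusted p = 0.0167). No arrays overlapped in either pair. That held for KO above WT in 26.4% of all tested genes in Efemp2 DA P1 and 38.7% in Eln DA P1. The Efemp2 DA call was lost in 6 of 10 settings and without replicate 2 of the WT arrays (0.80, adjusted p = 0.343) or either KO array. The Eln DA call was lost with cyclic loess (0.28, adjusted p = 0.485) and without replicate 1 of the WT (adjusted p = 0.185) or KO arrays (adjusted p = 0.0949). In Efemp2 AA E17.5 the WT arrays read 8.76 and 9.88 and the KO arrays 9.90 and 9.86. Without replicate 1 of those WT arrays the Efemp2 mean was 0.32 (adjusted p = 0.0841), and the call was also lost without 6 other single arrays (adjusted p 0.0525 to 0.0688) and in 4 of 10 settings. The Eln mean passed without replicate 2 of Eln WT DA P1 (0.40, adjusted p = 0.0487).

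**Figure D3:**
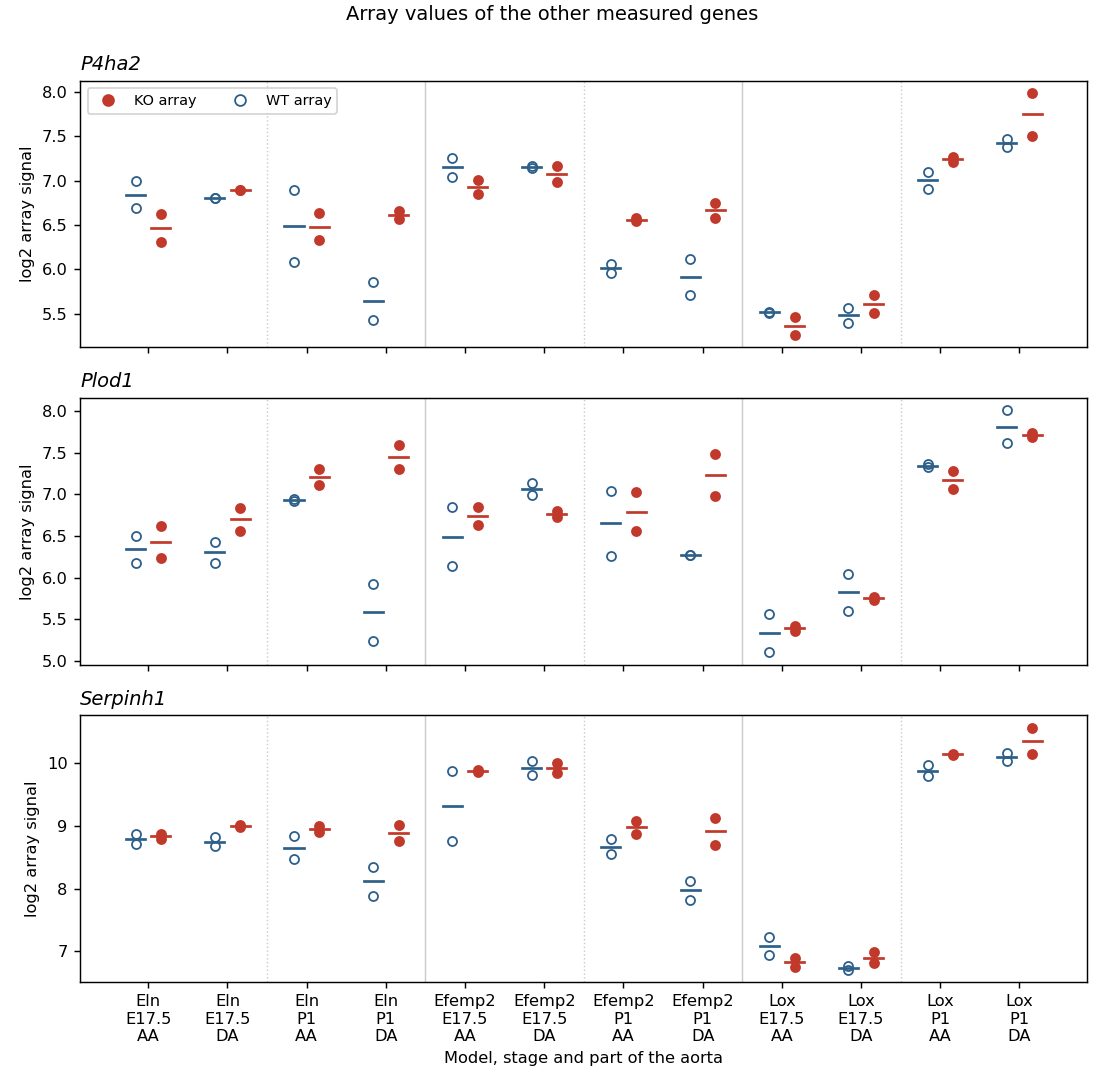
Array values of P4ha2, Plod1 and Serpinh1, plotted as deposited log2 units with filled KO points, open WT points and lines at the mean of 2 arrays. The 2 WT points of Plod1 in Eln DA P1, at 5.24 and 5.93, lie furthest below their KO points.

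All pair calls were at P1, although most differences at E17.5 were above 0 too. Stage and normalization run cannot be told apart in that contrast. At E17.5 the 6 genes gave 36 differences over 6 pairs, of which 0 passed by limma; 6 had an unadjusted p under 0.05, and 0 passed with trend and robust variances or with arrays centred. Without replicate 2 of Efemp2 WT AA E17.5, 1 passed in that pair. The share of all tested genes that rose at E17.5 was 0.0391% and 0.0326% in Eln AA and DA, 0.548% and 0.0391% in Efemp2 AA and DA, and 0.013% and 0.00652% in Lox AA and DA. At P1, 16 of 36 differences passed, all of them rises. In Eln DA P1 6 of 6 genes rose, but so did 19.8% of all tested genes, beside WT arrays of raised background; with cyclic loess 3 rose, and 1 with the receptor gene median as a covariate. In Eln AA P1 1 of 6 rose (P4ha3), against 1.15% of all tested genes. Of the 6 genes, 3 rose in Efemp2 AA P1, against 3.03%, and 4 in Efemp2 DA P1, against 1.28%. In Lox AA P1 and Lox DA P1 1 rose in each (P4ha1), against 0.17% and 0.104%. The single calls of the Lox pairs were lost without filter, with a replicate block within each pair, and without any 1 of the 4 arrays in AA or 3 of the 4 in DA.

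The median of all tested genes lay more than 0.1 from 0 in 3 pairs, at 0.27 in Eln DA P1, -0.20 in Lox AA P1 and -0.17 in Lox DA P1. Less that median, the 36 differences at P1 had a median of 0.67 and lay above 0 in 35, and the 36 at E17.5 had a median of 0.23 and lay above 0 in 27. Over all tested genes the share above 0 was 50.0% at each stage, as the subtraction sets it. The differences of a stage share arrays and are not independent. On this scale P4ha1 differed by 1.05 in Lox AA P1 and 1.11 in Lox DA P1, and Plod2 by 0.73 and 1.02. In Eln DA P1 the values were 1.60 for Plod1, 1.43 for P4ha3, 1.05 for Plod2, 0.70 for P4ha2, 0.52 for P4ha1 and 0.50 for Serpinh1.

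**Figure D4:**
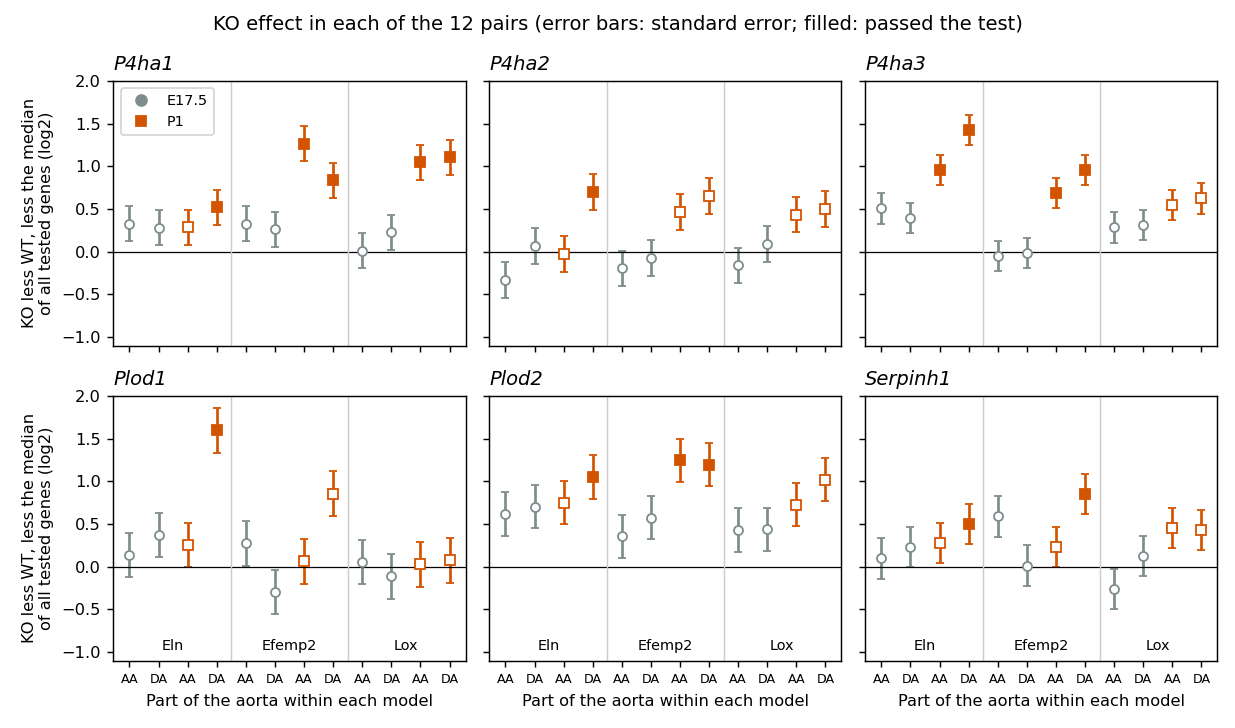
KO effect of each gene in each of the 12 pairs. Points are KO less WT in log2 units after subtraction of the pair's median over all tested genes, grey circles at E17.5 and orange squares at P1; error bars are standard errors, and filled points passed the test before that subtraction. All filled points are at P1, and Plod2 lies between 0.35 and 1.25 in every pair.

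The change of the KO effect from E17.5 to P1 was tested within each model as a difference of differences, each taken within its own stage. The stages of the Eln and Efemp2 models were treated as separate normalization runs, and the Lox P1 arrays could not be placed. Stage and run therefore cannot be told apart in these differences. The test was of the deposited scale, on which the median of all tested genes shifted by 0.14 in Eln, 0.10 in Efemp2 and -0.20 in Lox. In the Efemp2 model the effect grew for 3 of 6 genes, against 1.15% of all tested genes: P4ha3 by 0.96 ± 0.18 (limma adjusted p = 0.0152), P4ha1 by 0.86 ± 0.21 (adjusted p = 0.0361) and P4ha2 by 0.80 ± 0.21 (adjusted p = 0.0488). Plod2 differed as much as P4ha1 but did not pass (0.86 ± 0.25, adjusted p = 0.0807), and nor did Plod1 (0.57 ± 0.26, adjusted p = 0.253) or Serpinh1 (0.34 ± 0.24, adjusted p = 0.47). In the Eln model it grew for P4ha3 alone, by 0.90 ± 0.18 (adjusted p = 0.0166), against 0.443%. The Lox model had 0 of 6, against 0.00652%, with 1 of 6 at an unadjusted p under 0.05: P4ha1, at 0.75 ± 0.21 (adjusted p = 0.136). With each array centred on its median, P4ha3 still passed in the Efemp2 and Eln models, and P4ha1 (0.74, adjusted p = 0.0814) and P4ha2 (0.68, adjusted p = 0.102) did not. With cyclic loess 0 of 6 passed in any model. Leaving out 1 array lost the call of P4ha3 in 0 of 16 fits in the Efemp2 model and 3 of 16 in the Eln model, that of P4ha1 in 11 of 16 and that of P4ha2 in 14 of 16.

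**Figure D5:**
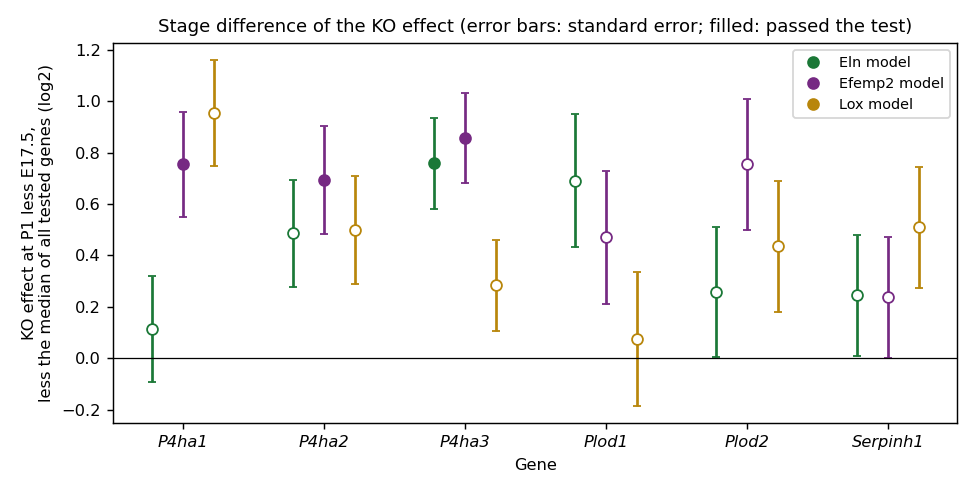
Stage difference of the KO effect. Points are the KO effect at P1 less that at E17.5 in log2 units, after subtraction of the median of all tested genes, by gene and model; error bars are standard errors, and filled points passed the test before that subtraction. The 4 filled points are P4ha3 in the Eln model and P4ha1, P4ha2 and P4ha3 in the Efemp2 model.

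In the Eln model the KO effect was larger in DA for Plod1, by 0.95 ± 0.26 (limma adjusted p = 0.033), and for P4ha2, by 0.72 ± 0.21 (adjusted p = 0.0414), on the deposited scale, where the median of all tested genes shifted by 0.18. That was 2 of 6 genes, against 3.13% of all tested genes. The contrast includes DA P1, whose WT arrays had raised background; the part of that background in the result was not tested. Centred arrays gave 0.75 (adjusted p = 0.0571) for Plod1 and 0.52 (adjusted p = 0.123) for P4ha2, and the receptor gene median as a covariate gave 0.67 (adjusted p = 0.212) and 0.60 (adjusted p = 0.204). The Plod1 call was lost in 9 and the P4ha2 call in 10 of 16 fits that left out 1 array. For the Efemp2 and Lox models 0 of 6 passed, where 0% of all tested genes rose; none of the 6 had an unadjusted p under 0.05 in either. In WT aortas 0 of 6 genes differed between DA and AA by limma, against 8.59% of all tested genes. For 6 genes, a count of 0 is near that share. Of the 6, 1 had an unadjusted p under 0.05 (Plod2, -0.23 ± 0.10, adjusted p = 0.187).

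Between models, 1 of 18 differences passed. The P4ha3 effect was smaller in Lox KO than in Eln KO, by -0.53 ± 0.12 (limma adjusted p = 0.0425) on the deposited scale, where the median of all tested genes shifted by -0.14 and 0.509% of them differed. That call was lost in 5 of 8 settings, among them centred arrays (-0.39, adjusted p = 0.317), and in 29 of 32 fits that left out 1 array. Between Efemp2 and Eln KO, 0 of 6 passed, against 0.554%, and 2 had an unadjusted p under 0.05: P4ha3 at -0.45 (95% interval -0.71 to -0.20, adjusted p = 0.113) and Plod1 at -0.39 (-0.77 to -0.02, adjusted p = 0.557). Between Lox and Efemp2 KO, 0 of 6 passed, against 0.0261%, with 1 at an unadjusted p under 0.05, Serpinh1. For Plod2 the Efemp2 and Eln effects differed by 0.03, with a 95% interval of -0.33 to 0.40. The Plod1 effects of Lox and Eln KO differed by -0.73 ± 0.18 (adjusted p = 0.0623).

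The 8 groups of the Eln and Efemp2 models at P1, treated as 1 normalization run, were ordered for each gene. For P4ha3 and Plod2 the 4 KO groups took the highest 4 places and every KO array lay above every WT array: 7.79 to 8.61 against 6.50 to 7.26 for P4ha3, and 7.34 to 8.15 against 6.10 to 7.07 for Plod2. The share of all tested genes with that order was not counted. P4ha3 was highest in Eln KO DA (8.32 ± 0.41, SD, n = 2) and Eln KO AA (8.20 ± 0.09), whose arrays overlapped, then Efemp2 KO DA (7.89 ± 0.03) and AA (7.85 ± 0.07), whose arrays overlapped too. P4ha1 was highest in Efemp2 KO AA and DA (7.30 ± 0.03), whose arrays overlapped, then Eln KO DA (6.96 ± 0.01) and Eln KO AA (6.49 ± 0.35), the last overlapping the next WT group in the order. Plod2 ran from Efemp2 KO AA (8.15 ± 0.01) and Efemp2 KO DA (7.88 ± 0.12) to Eln KO AA (7.74 ± 0.45) and DA (7.72 ± 0.53), of which the last 3 overlapped in turn. For Serpinh1 the 4 KO groups lay between 8.89 and 8.98 and neighbouring groups overlapped down to Eln WT AA (8.65 ± 0.26). For P4ha2 and Plod1 the Eln WT AA group stood above 1 KO group, that of Eln AA for P4ha2 and of Efemp2 AA for Plod1, and the arrays of both pairs of groups overlapped.

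Over the 12 pair differences, each less its pair's median, the 15 pairs of genes correlated at a median Pearson r of 0.56, from 0.07 for P4ha1 with Plod1 to 0.84 for P4ha2 with Plod2; the points share arrays and normalization runs, and these values are descriptions. By the same measure over all tested genes, P4ha1 was most like Kdelr2 (0.94), Ndufa4l2 (0.93) and Atxn10 (0.90). P4ha2 was most like Lman1 (0.92), Sec23a (0.92) and Sec14l1 (0.92), and Plod2 like Sec23a (0.95), Phtf1 (0.92) and Rtl6 (0.92). P4ha3 was most like Fndc3b (0.96), Rab2b (0.95) and Capn6 (0.92). Plod1 was most like Mcrs1 (0.96), Plcd1 (0.95) and Col18a1 (0.95), and Serpinh1 like Tle5 (0.93), Sympk (0.87) and Abca7 (0.87).

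The other lists are read against the same shares of all tested genes, of which 2.74%, 3.14% and 0.561% rose in Eln, Efemp2 and Lox KO. Of 13 tested partners and enzymes of collagen modification in the endoplasmic reticulum, 3 rose with Eln loss, 1 with Efemp2 loss and 0 with Lox loss, none fell, and their median differences were 0.27, 0.10 and -0.02. In Eln DA P1 10 of the 13 rose, where 19.8% of all tested genes did. P4hb, the beta subunit of prolyl 4-hydroxylase, rose by 0.32 ± 0.08 in Eln KO (limma adjusted p = 0.0159) and differed by 0.26 ± 0.08 in Efemp2 KO (adjusted p = 0.057) and 0.11 ± 0.08 in Lox KO (adjusted p = 0.545). Colgalt1, which adds galactose to hydroxylysine, rose by 0.45 in Eln KO and 0.36 in Efemp2 KO, and the prolyl 3-hydroxylase P3h2 rose by 0.66 in Eln KO. Of 10 genes of procollagen export and propeptide removal, 2 rose in Eln KO, 2 rose and 1 fell in Efemp2 KO and 0 passed in Lox KO. Adamts14, a procollagen N-propeptidase, rose by 1.00 in Eln KO and 0.55 in Efemp2 KO, while Pcolce2, an enhancer of C-propeptide removal, rose by 0.42 in the first and fell by 0.49 in the second.

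Of 23 procollagen chains, the substrates, 3 rose with Eln loss, 4 with Efemp2 loss and 3 with Lox loss, with none lower. Col8a1, Col11a1 and Col12a1 rose in all 3 models and Col4a2 (0.46) in Efemp2 KO, and the median differences of the chains were 0.13, 0.07 and 0.02. Of 4 tested cross-linking oxidases, Lox (0.58) and Loxl3 (0.56) rose in Eln KO, and none rose in Efemp2 or Lox KO. Among 4 prolyl hydroxylases of other substrates, Egln3 rose in Efemp2 KO (0.57, adjusted p = 0.04999) and no other passed in any model. Of 12 hypoxia and glycolysis genes, 0 passed in Eln and Lox KO and 3 rose in Efemp2 KO: Adm (1.17), Slc2a1 (0.72) and Pgk1 (0.67). Of 13 genes of general folding in the endoplasmic reticulum, Hyou1 (0.54), Pdia6 (0.50) and Calr (0.46) rose with Eln loss. With Efemp2 loss 6 rose, among them Pdia6 (0.46), Calr (0.43) and Hspa5 (0.30), and 0 passed with Lox loss. Of 8 heat shock genes, Hsph1 rose in Eln KO (0.57) and Hsph1 (0.48) and Hspb1 (0.64) in Efemp2 KO.

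Markers of other cells moved with some of these results, and their part in them was not tested. Of 6 macrophage markers, 4 rose in Efemp2 KO (Itgam, Lyz2, Cd68 and Adgre1), 1 in Lox KO (Adgre1) and 0 in Eln KO. Their mean level per array was 7.58 to 8.25 in Efemp2 KO and 6.34 to 7.38 in WT at E17.5, where no gene of the 6 passed, and 7.51 to 7.85 against 6.45 to 7.16 at P1. Of 6 fibroblast markers, Dpt, Lum and Dcn fell and Pi16 rose in Eln KO, Dpt fell and 1 other gene rose in Efemp2 KO, and 0 passed in Lox KO. Their mean level in Eln arrays was 8.46 to 8.94 in KO and 8.87 to 9.17 in WT at E17.5, and 8.74 to 9.30 against 8.80 to 9.64 at P1. Of 6 smooth muscle markers only Smtn passed (0.60, Eln KO), and of 6 endothelial markers Emcn fell in Eln KO and Cdh5 and Emcn in Efemp2 KO. Of 6 cartilage markers Chad, Hapln1 and Acan rose in Eln KO and Acan in Efemp2 KO. Among 6 brown fat markers Pparg and Fabp4 fell in Eln KO and Cidea in Lox KO. At P1 their mean level had a median of 6.95 in Eln KO and 7.55 in WT. It was 6.09 against 6.94 in Efemp2 and 6.94 against 8.17 in Lox. KO and WT ranges at P1 overlapped in each model. At E17.5 the medians were 5.29 against 5.57 in Eln, 5.64 against 5.67 in Efemp2 and 4.97 against 5.11 in Lox. Among 4 neuron and Schwann cell markers Stmn2 and Prph rose in Eln KO. Of 6 heart muscle markers, 0 passed by limma in any model.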

How the data were processed

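The authors deposited log2 signals per probe set; the submitters' processing notes list RMA and Affymetrix Expression Console, and versions, array type and genome build are not given in the sources used here. Per the labels' protocols, total RNA was amplified from 5 ng. The table held 41345 probe sets: 23521 with 1 gene symbol in the platform annotation, 1814 with several and 16010 with none. Genes with no group mean of 4.94 or more, the median of the single-symbol probe sets, were left out. R 4.3.3 and limma 3.58.1 fitted a mean for each of 24 groups to 48 arrays, and P values were adjusted over 15337 genes per contrast. Replicate arrays correlated at a median r of 0.970 (lowest 0.875). The fit was tested on simulated data. Promoter letters came from RefSeq's table, in which 6 of the 7 genes matched.

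Members and gene lists were chosen with earlier results of these data known. The text names all members, the deleted genes, up to 4 genes of each list with the smallest p among those that passed, and the 3 genes most like each member. The alternatives were no filter, cyclic loess, centred arrays, the arrays of 1 model, trend and robust variances, a replicate block within pairs or over all arrays, the mean of all probe sets, array background (each array's median of olfactory or vomeronasal receptor genes) as a covariate, a fit less 4 arrays of raised background, and leaving out each array.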

Additional observations from a re-analysis of the deposited data

Results flagged for a closer look

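Of the differences between effects, 7 passed the test of the difference itself on the deposited scale. The values here are log2 units less the median of all tested genes and are smaller than the tested ones, to which the p values belong. With centred arrays only the P4ha3 stage differences passed. In the stage differences, stage and normalization run cannot be told apart. The KO effect was larger at P1 than at E17.5 for P4ha3 with Eln loss (0.76, adjusted p = 0.0166 by limma) and, with Efemp2 loss, for P4ha3 (0.86, adjusted p = 0.0152), P4ha1 (0.75, adjusted p = 0.0361) and P4ha2 (0.69, adjusted p = 0.0488). The Eln effect was larger in DA than in AA for Plod1 (0.77, adjusted p = 0.033) and P4ha2 (0.54, adjusted p = 0.0414), with both WT arrays of DA P1 of raised background. The P4ha3 effect was smaller in Lox than in Eln KO (-0.39, adjusted p = 0.0425). No rule for outlying arrays was applied to groups of 2.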

How the results depend on the processing

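Among the 6 genes, no setting or left-out array ended the mean calls of P4ha3 and Plod2 in Eln KO, P4ha1 and Plod2 in Efemp2 KO and P4ha1 in Lox KO. P4ha2 in Eln KO turned to -0.099 less the 4 arrays of raised background, where the mean is over the 3 pairs left, and Plod1 in Lox KO to 0.0059 with centred arrays; the cause was not tested. Of 300 counts of calls under the settings, 52 moved by over 1.5 times. Depth is not defined for arrays. Both WT arrays of Eln DA P1 had raised background, and its part in the dim values there was not tested.

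Members higher in the Eln mean were 2 less the 4 arrays of raised background, and in the Efemp2 mean 2 with cyclic loess and 2 with the arrays of the model alone. Genes higher in Eln KO numbered 240 with loess, 136 with the receptor gene median as a covariate and 145 less the 4 arrays, and genes lower 134 with loess. Genes higher in Efemp2 KO numbered 177 with the arrays of the model and 241 with the covariate, and genes lower 216 with loess, 165 centred, 19 with the arrays of the model and 267 less the 4 arrays. Genes higher in Lox KO numbered 137 with loess, 157 centred and 186 with the arrays of the model, and genes lower 70, 73 and 581 in the same order, 267 with the covariate and 320 less the 4 arrays.

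Members higher in Eln AA P1 were 2 with loess and 0 with the arrays of the model, and in Eln DA P1 3 with loess and 1 with the covariate. In Efemp2 AA P1 they were 1 with the arrays of the model, and in Efemp2 DA P1 1 with loess, 0 with the arrays of the model and 2 less the 4 arrays. In Lox AA P1 they were 0 without filter and with trend and robust variances, and in Lox DA P1 0 without filter and 2 with loess. For P1 less E17.5 they were 0 in Eln with loess, the arrays of the model and the covariate, 1 in Lox with the covariate, and in Efemp2 1 without filter or centred and 0 with loess or the arrays of the model. For DA less AA in Eln they were 1 without filter or with the arrays of the model, and 0 with loess, centred or with the covariate.

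Replicate numbers were not used to pair KO with WT arrays in the main fit. Deviations of same-numbered KO and WT arrays correlated at -0.23 to 0.20, over 0.1 in 3 of 12 pairs and under -0.1 in 2. The highest were in Lox DA P1 (0.20) and Lox AA P1 (0.16), the lowest in Lox AA E17.5 (-0.23). Such correlations cannot exclude a pairing. Same-numbered AA and DA arrays were not compared, so pools shared between the parts of the aorta were not tested. With a replicate block within each pair, members higher were 0 in Lox AA P1, 0 in Lox DA P1, 0 for P1 less E17.5 in Eln, 1 in Efemp2, and 1 for DA less AA in Eln. With a replicate block over all arrays they were 0 in Lox AA P1.

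Leaving out 1 array gave 272 to 697 genes higher and 52 to 175 lower in Eln KO, 317 to 722 and 49 to 176 in Efemp2 KO, and 43 to 110 and 72 to 191 in Lox KO. Members higher ranged from 1 to 3 in the Lox mean, 0 to 1 in Eln AA P1, Efemp2 AA E17.5 and Lox DA P1, 1 to 4 in Efemp2 DA P1 and stood at 0 in Lox AA P1. For P1 less E17.5 they ranged from 0 to 2 in Eln and 1 to 4 in Efemp2, and for DA less AA in Eln from 0 to 2.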
